A study of Mus musculus with 20 samples.

Results

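The neurotrophins, GDNF and their receptors were represented on the arrays by 13 probes of 8 genes: the secreted ligands *Bdnf*, *Ntf3* and *Gdnf*, and the receptors *Ntrk2*, *Ntrk3*, *Ngfr*, *Gfra1* and *Ret*. A probe was taken as a member when the transcript record that names it on the array belongs to 1 of these 8 genes. The 13 probes are part of 55681 probes on each array, of which 27656 carry the symbol of 1 of 20972 genes. *Ntrk3* had 4 probes, *Ntrk2* had 3 and each of the other genes had 1. The signal of 12 of the 13 probes was high enough to be tested, among 31516 probes tested in all, and the *Ntf3* probe was not.

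Neurotrophins are small secreted proteins that support the survival of neurons and change the strength of their synapses. BDNF binds the receptor tyrosine kinase TrkB, which *Ntrk2* encodes, and neurotrophin-3 binds mainly TrkC, which *Ntrk3* encodes, while the p75 receptor, encoded by *Ngfr*, binds all neurotrophins and their precursors. GDNF binds the surface-anchored co-receptor that *Gfra1* encodes, and the pair activates the tyrosine kinase Ret. The striatum is known to make little *Bdnf* mRNA itself and to receive most of its BDNF protein along axons from the cortex, and GDNF made in the striatum acts on the dopamine neurons that project to it.

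The study asked how methamphetamine (Meth) and the HIV protein Tat act together on gene expression in the mouse brain. The arrays came from 4 groups of 5 male C57BL/6J mice. Tat+ mice carried a Tet-binding protein driven by the astrocyte promoter GFAP and a Tat gene that this protein switches on, so that Tat was made in astrocytes, and Tat- mice carried the GFAP-driven protein alone. All mice of all groups received doxycycline at 100 mg/kg, the drug that turns the system on. Tat-/Sal and Tat+/Sal mice were given saline on 7 days, and Tat-/Meth and Tat+/Meth mice were given Meth at 2 mg/kg on the same days. The sources differ on the rest. The labels give the left brain hemisphere and an age of 6 to 7 weeks, and the design text of the series gives tissue taken 24 h after the last injection. The methods instead give the caudate putamen, an age of 3 to 5 months, an abstinence of 7 days, and a single dose of Meth (1 mg/kg) given 1 h before tissue was taken. If the methods hold, the saline groups also received Meth once.

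The 10 genes used as markers of striatal projection neurons, *Drd1*, *Drd2* and *Ppp1r1b* among them, were well above background on all 20 arrays. Of 8 markers of cortical excitatory neurons, 4 were well above background on all arrays. Of 8 markers of midbrain dopamine neurons, 6 were well above background on all arrays, and *Slc6a3* and *En1* lay under the signal limit in every group. All 5 Tat-/Meth arrays were on slide 1, which held no other group. Slide 2 held the 5 Tat-/Sal arrays and Tat+/Meth replicates 1 to 3, and slide 3 held Tat+/Meth replicates 4 and 5 and the 5 Tat+/Sal arrays. The bright corner control spots, which do not depend on mouse RNA, had log2 signals of 14.67 to 15.06 on slide 1 and 16.79 to 17.44 on slides 2 and 3. Tat-/Meth and slide 1 cannot be told apart in any comparison below. In whole tissue, fewer cells of a type and less RNA per cell cannot be told apart either.

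The arrays measure the transcripts, not the promoters, and the probe sequences were not used here. To show what lies upstream of these genes, RefSeq promoter sequences (build GRCm38.p6) were searched, with 250 bases before each annotated start. They held 14 windows of 6 of the genes, 7 of them for *Bdnf*, whose many promoters are used in different cells and states, and none for *Ntrk3* or *Ret*. The motif TGACGT, the core of the cAMP response element, occurred on either strand in 2 of the 14 windows, 1 of *Bdnf* and 1 of *Gdnf*. It occurred in 6.47% of all 32851 promoter windows of the same length. Both windows are shown because the motif is one through which neuronal activity is known to act on *Bdnf*. Capitals mark the motif, which reads ACGTCA on the strand printed, and a TATA box (TATAAA) in *Gdnf*. TATAAA, also searched on both strands, occurred in 12.4% of all windows.
Bdnf, chr2:109692186-109692435, + strand: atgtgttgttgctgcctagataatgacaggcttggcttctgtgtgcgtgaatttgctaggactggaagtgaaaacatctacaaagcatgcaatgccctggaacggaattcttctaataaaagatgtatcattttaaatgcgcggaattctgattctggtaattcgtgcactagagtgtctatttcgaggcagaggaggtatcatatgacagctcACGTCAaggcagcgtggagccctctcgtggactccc
Gdnf, chr15:7809798-7810047, + strand: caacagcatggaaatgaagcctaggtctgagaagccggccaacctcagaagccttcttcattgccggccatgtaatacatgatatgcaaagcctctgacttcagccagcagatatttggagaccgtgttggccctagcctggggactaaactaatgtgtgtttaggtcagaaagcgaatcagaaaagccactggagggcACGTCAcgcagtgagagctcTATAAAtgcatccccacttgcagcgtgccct
The first base of the motif lies 36 bases before the start in *Bdnf* and 51 bases before it in *Gdnf*, where the TATA box begins 31 bases before the start. Which promoter the transcripts read by the *Bdnf* probe came from was not determined, and the *Bdnf* and *Gdnf* levels below differed in their pattern across groups.

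*Bdnf* was the member that differed most. It was lowest in Tat-/Meth, and no array of that group reached the range of either saline group. All levels are log2 intensities with the 75th percentile of every array set equal, and levels of different probes are not comparable. In Tat-/Sal the *Bdnf* level was 7.21, 7.45, 6.62, 7.23 and 7.40 on replicates 1 to 5 (7.18 ± 0.33, mean ± SD, n = 5). In Tat-/Meth it was 6.12, 5.98, 6.16, 6.29 and 5.31 (5.97 ± 0.38), with replicate 5 not well above background. Over all probes, replicate 5 also stood apart from the rest of Tat-/Meth. Its median log2 signal before scaling was 6.87 (others 5.88 to 6.06), and 70.9% of its probes were well above background (others 56.5 to 60.3%). Tat-/Meth and Tat-/Sal did not overlap in *Bdnf*, since the highest Tat-/Meth array was below the lowest Tat-/Sal array. In Tat+/Sal the *Bdnf* level was 6.77, 6.30, 6.67, 6.76 and 6.59 (6.62 ± 0.19). In Tat+/Meth it was 7.31, 7.23, 7.03, 6.77 and 6.54 (6.98 ± 0.32), which overlapped with both saline groups. By mean, Tat-/Sal was highest, followed by Tat+/Meth, then by Tat+/Sal and last by Tat-/Meth. Tat-/Sal and Tat+/Meth did not differ beyond their spread, nor did Tat+/Meth and Tat+/Sal, and the lowest Tat+/Sal array (6.30) lay next to the highest Tat-/Meth array (6.29).

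**Figure D1:**
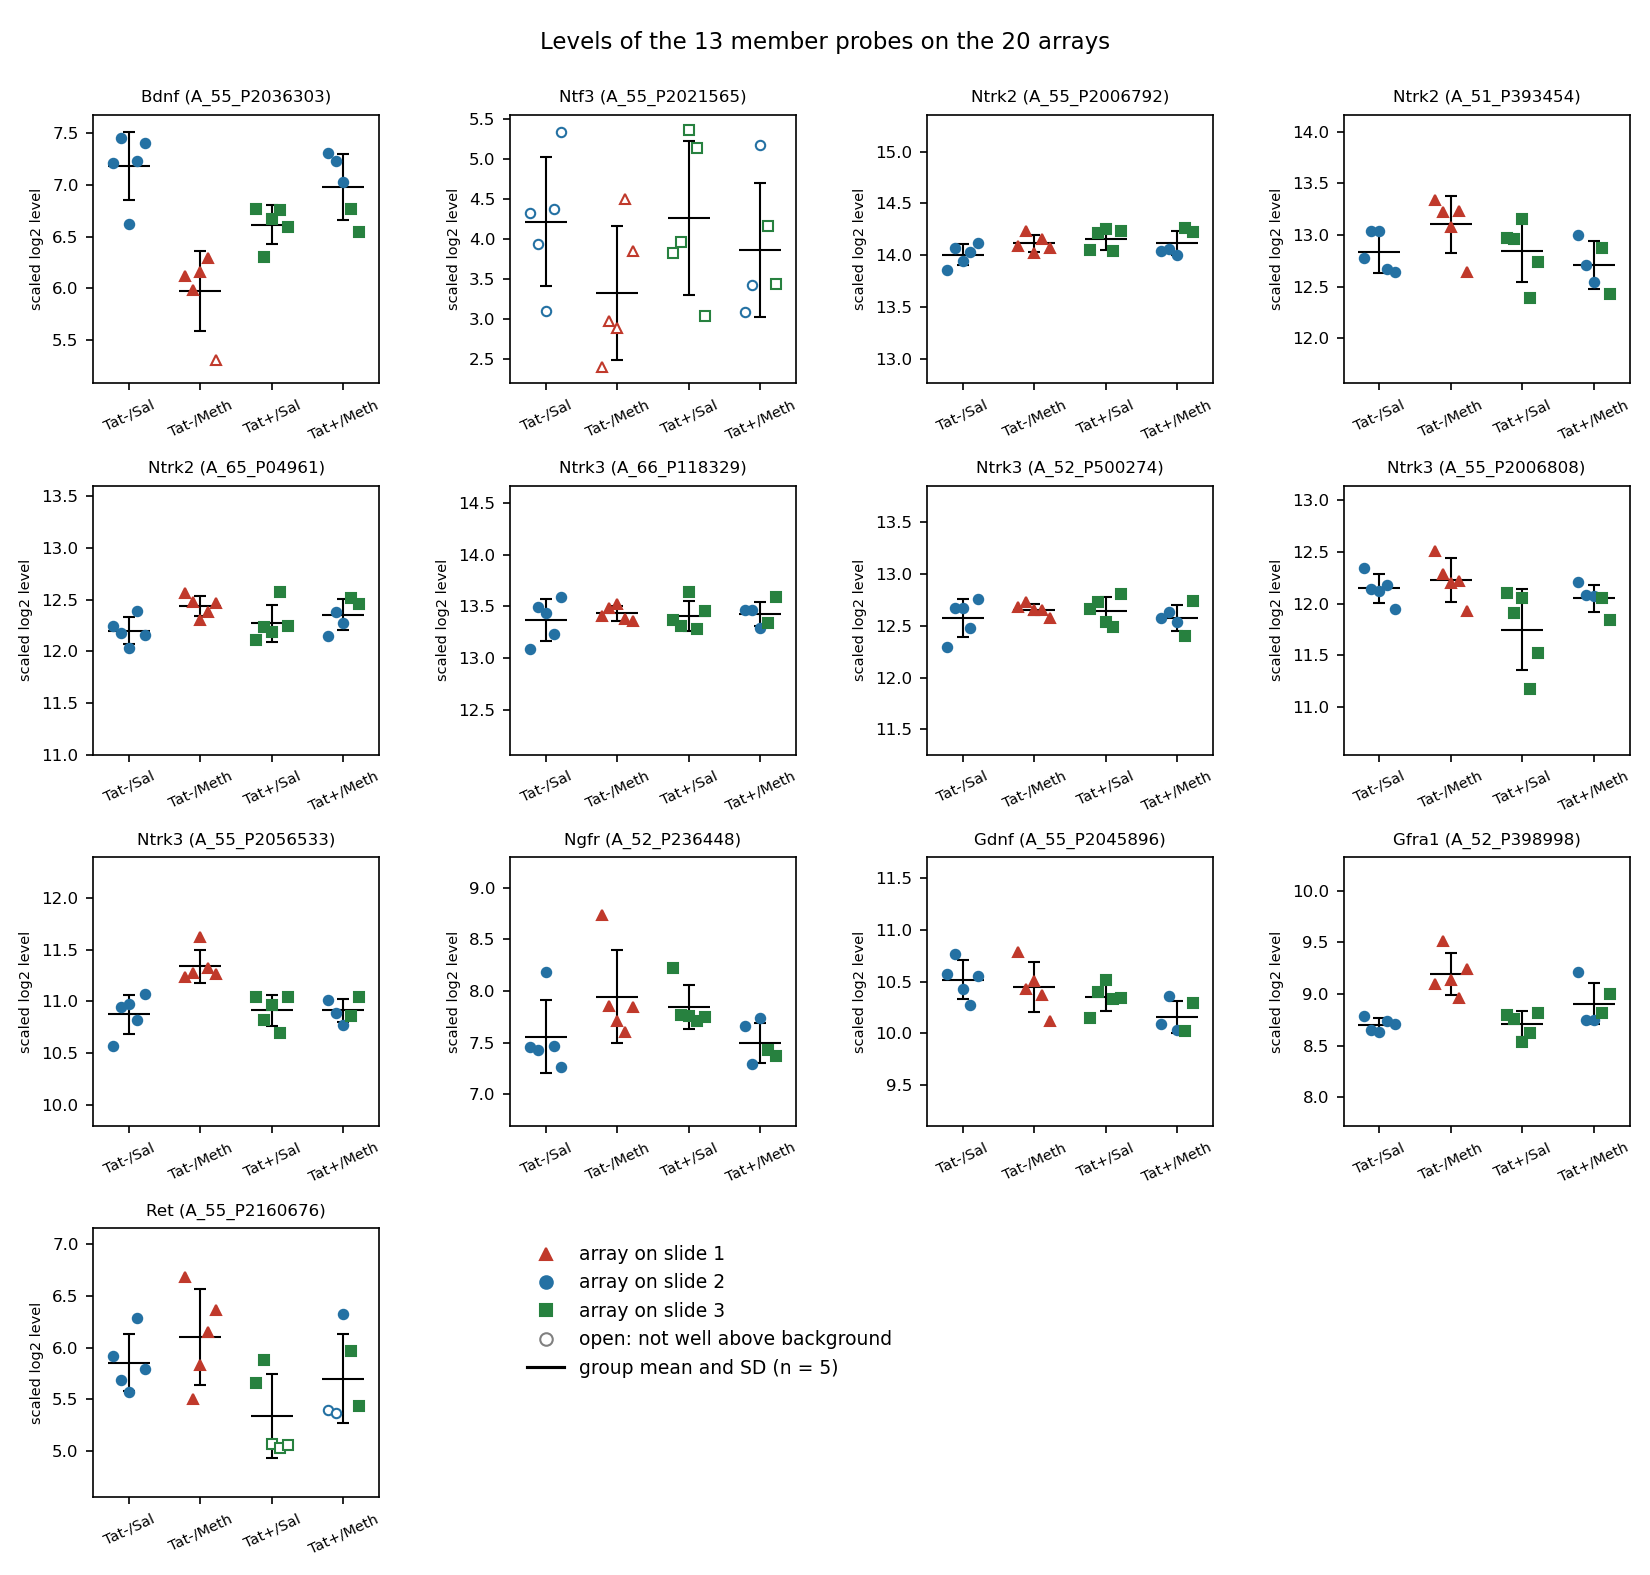
Level of each of the 13 member probes on each array (scaled log2 intensity, vertical axis) in the 4 groups (horizontal axis). Marker shape and colour give the slide, open markers are arrays not well above background, and bars are group means and SD (n = 5). *Bdnf* in Tat-/Meth lies between 5.31 and 6.29 and below all Tat-/Sal arrays (6.62 to 7.45), and *Ntf3* is open on all 20 arrays.

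Among mice without Tat, the *Bdnf* level of the Tat-/Meth arrays was below that of the Tat-/Sal arrays (log2 fold change -1.21 ± 0.19 SE, 95% interval -1.61 to -0.81, 2.31-fold lower, limma adjusted p = 4.10e-05). It was the 1 member called when Tat-/Meth was set against Tat-/Sal. A call needs more than a 2-fold change with an adjusted p below 0.05, which 11.6% of all probes tested had (10.9% lower). The fall stayed past adjusted p 0.05 in all 15 other settings tried and in all 20 fits with 1 array left out (-1.35 to -1.04), but it was 1.38-fold at normexp background correction (log2 -0.46) and under 2-fold with the values of the series matrix (-0.95), and the call was lost with both. Beside it, the mean level of the cortical marker list was 6.40 to 7.89 on the Tat-/Sal arrays and 6.19 to 6.97 on the Tat-/Meth arrays. It was 6.06 to 7.73 in Tat+/Sal and 6.10 to 6.78 in Tat+/Meth. The median change of the list against Tat-/Sal was -0.60 in Tat-/Meth (all genes 0.14), -0.70 in Tat+/Sal and -0.69 in Tat+/Meth. None of its 7 tested genes passed adjusted p 0.05 in Tat-/Meth vs. Tat-/Sal, where 34.3% of all genes passed upwards and 15.1% downwards. The part of this list in the *Bdnf* values was not tested.

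Among mice given Meth, *Bdnf* was higher with Tat, while among mice given saline its mean was lower with Tat, as given below. In Tat+/Meth vs. Tat-/Meth it was 2.01-fold higher (log2 1.005 ± 0.19, adjusted p = 0.000238), with no overlap, and it was again the 1 member called, beside 12% of all probes (11.3% higher). The change sat at the 2-fold limit. It dropped under it without Tat-/Meth replicate 5 (0.84) and without Tat+/Meth replicate 1 (0.92), 2 (0.94) or 3 (0.99), and kept an adjusted p under 0.001 in each of these fits. It was also under 2-fold with median scaling (0.85), the series matrix values (0.77) and normexp (0.37). It shares the Tat-/Meth arrays with the Meth comparison in Tat- mice. The response of *Bdnf* to Meth in Tat+ mice, minus the response in Tat- mice, was 1.57 ± 0.27 (adjusted p = 0.000169), and this was the 1 member called in the test of that difference, beside 12.4% of all probes. This call was lost with quantile normalization (1.64, adjusted p = 0.0578) and with normexp (0.66).

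Within the other 3 groups, the *Bdnf* level went with the slide. On slide 2 the mean was 7.18 in Tat-/Sal and 7.19 in the 3 Tat+/Meth arrays, and on slide 3 it was 6.66 in the 2 Tat+/Meth arrays and 6.62 in Tat+/Sal. Tat+/Sal was lower than Tat-/Sal by 0.56 ± 0.19 (unadjusted p = 0.00822, limma adjusted p = 0.146). These 2 groups share no slide, so slide and Tat cannot be told apart between them. With slide as a term in the fit, which rests on the 3 and 2 Tat+/Meth arrays, the difference was -0.03. With slide as a random block, whose estimated correlation was -0.06, it was -0.65 (limma adjusted p = 0.0196). Only Tat+/Meth lies on both slides 2 and 3, so this random block cannot separate slide from Tat between the saline groups. With it, 2991 of all probes passed the adjusted p limit in Tat+/Sal vs. Tat-/Sal, against 223 in the main fit. Its smaller p is therefore not evidence for a Tat difference apart from slide. Tat+/Meth differed from Tat+/Sal by 0.36 (adjusted p = 0.480, 95% interval -0.04 to 0.76) over all arrays and by 0.04 within slide 3. Tat+/Meth differed from Tat-/Sal by -0.20 (adjusted p = 0.841) over all arrays and by 0.01 within slide 2. No such value within a slide exists for Tat-/Meth.

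Of the other ligands, *Ntf3* was too dim to be compared with *Bdnf*, and *Gdnf* did not follow *Bdnf*. *Ntf3*, which encodes neurotrophin-3, was well above background on 0 of 20 arrays, with levels of 2.39 to 5.36, so no fold change is given. *Gdnf* was well above background on all 20 arrays. Its level was 10.57, 10.77, 10.43, 10.27 and 10.55 in Tat-/Sal (10.52 ± 0.19) and 10.79, 10.43, 10.51, 10.37 and 10.12 in Tat-/Meth (10.44 ± 0.24). These groups overlapped over most of their range, and the difference was -0.07 (adjusted p = 0.609). In Tat+/Sal it was 10.15, 10.40, 10.52, 10.33 and 10.34 (10.35 ± 0.14), and in Tat+/Meth it was 10.09, 10.36, 10.03, 10.02 and 10.29 (10.16 ± 0.16). Tat+/Meth had the lowest mean, but its arrays overlapped with those of each other group. *Gdnf* was lower in Tat+/Meth vs. Tat-/Meth by 0.29 (log2 -0.29, adjusted p = 0.0440). That value passed the limit narrowly. Its adjusted p was between 0.0504 and 0.138 in 11 of 20 fits, those without Tat-/Meth replicate 1, 2, 3 or 4, Tat-/Sal replicate 1 or 5, Tat+/Meth replicate 1, 3 or 4, or Tat+/Sal replicate 2 or 5, and without any scaling of the arrays the change was 0.05. It also missed the limit with median scaling, normexp, the series matrix values, no signal filter, only the 2 groups and the methods' test. *Gdnf* was also the 1 member with an unadjusted p under 0.05 in Tat+/Meth vs. Tat-/Sal (-0.36, unadjusted p = 0.00573, limma adjusted p = 0.778), where 6.31% of all probes had one.

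Of the receptor genes, one probe of *Ntrk3* and that of *Gfra1* were higher in Tat-/Meth than on every Tat-/Sal array. *Ntrk3* was read by 4 probes that did not move alike. Probe A_55_P2056533 read 10.57, 10.94, 10.97, 10.82 and 11.07 in Tat-/Sal (10.87 ± 0.19) and 11.23, 11.27, 11.62, 11.32 and 11.26 in Tat-/Meth (11.34 ± 0.16). The lowest Tat-/Meth array was above the highest Tat-/Sal array. It read 11.04, 10.82, 10.96, 10.69 and 11.04 in Tat+/Sal (10.91 ± 0.15) and 11.01, 10.89, 10.77, 10.86 and 11.04 in Tat+/Meth (10.91 ± 0.11), so that 3 of the 4 groups lay together. The rise in Tat-/Meth vs. Tat-/Sal was 0.47 ± 0.10 (1.38-fold, limma adjusted p = 0.000702), Tat+/Meth was lower than Tat-/Meth by 0.42 (log2 -0.42, adjusted p = 0.00140), and the effects of Meth in Tat+ and Tat- mice differed by -0.46 ± 0.14 (adjusted p = 0.0138). The last value missed the limit with median scaling (adjusted p = 0.0573) and was 0.02 without scaling.

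The other *Ntrk3* probes showed no such rise. A_66_P118329, named by the same transcript record, had group means of 13.36 in Tat-/Sal, 13.43 in Tat-/Meth, 13.41 in Tat+/Sal and 13.43 in Tat+/Meth, and its change in Tat-/Meth vs. Tat-/Sal was 0.07 (adjusted p = 0.549). The level of A_66_P118329 less that of A_55_P2056533 within an array was 2.49 ± 0.06 in Tat-/Sal, 2.09 ± 0.12 in Tat-/Meth, 2.50 ± 0.14 in Tat+/Sal and 2.51 ± 0.05 in Tat+/Meth (log2, n = 5 each). The Tat-/Meth arrays did not overlap with Tat-/Sal or Tat+/Meth in this difference (exact two-sided permutation p = 0.00794 for each, the smallest possible for 5 against 5, and 0.0595 after adjustment over 15 such tests). A_52_P500274 and A_55_P2006808 share the other record. Both changed by 0.08 between Tat-/Sal and Tat-/Meth (adjusted p = 0.450 and 0.670). A_55_P2006808 was low on 2 of the 5 Tat+/Sal arrays (12.10, 11.91, 12.05, 11.17 and 11.52), and its change in Tat+/Sal vs. Tat-/Sal was -0.40 (limma adjusted p = 0.187).

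*Ntrk2* was bright on all arrays with each of its 3 probes, and its differences were small. A_55_P2006792 lay between 13.86 and 14.26 on the 20 arrays, with group means of 14.004 in Tat-/Sal, 14.11 in Tat-/Meth, 14.16 in Tat+/Sal and 14.12 in Tat+/Meth. A_65_P04961, named by the same record, read 12.24, 12.18, 12.03, 12.39 and 12.16 in Tat-/Sal and 12.56, 12.48, 12.30, 12.38 and 12.47 in Tat-/Meth. The groups overlapped, as Tat-/Sal replicate 4 was above 2 Tat-/Meth arrays. Its rise of 0.24 ± 0.09 passed the test narrowly (adjusted p = 0.0359). The adjusted p was 0.0595 to 0.0977 without Tat-/Meth replicate 1, 2 or 5 or without Tat-/Sal replicate 2, 3 or 5, and without scaling of the arrays the change was -0.18. It also missed the limit with quantile normalization, median scaling, normexp and no signal filter.

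The third *Ntrk2* probe, A_51_P393454, is printed at 10 spots, and its spots agreed within an array to an SD of 0.01 to 0.04, far less than the spread between arrays. It read 12.78, 13.04, 13.04, 12.67 and 12.64 in Tat-/Sal and 13.34, 13.22, 13.08, 13.23 and 12.64 in Tat-/Meth, where replicate 5 was the low array. It read 12.97, 12.96, 13.15, 12.39 and 12.74 in Tat+/Sal and 13.002, 12.71, 12.55, 12.87 and 12.43 in Tat+/Meth. All groups overlapped. Tat+/Meth was lower than Tat-/Meth by 0.39 (log2 -0.39, adjusted p = 0.0400), and the change in Tat-/Meth vs. Tat-/Sal was 0.27 (adjusted p = 0.153). The lower level in Tat+/Meth had an adjusted p of 0.0594 to 0.104 without Tat-/Meth replicate 1, 2, 3 or 4 or without Tat+/Meth replicate 2, 3 or 5. It also missed the limit in 8 of 13 other settings (quantile, median and no scaling, normexp, the series matrix values, no signal filter, only the 2 groups, and the methods' test after adjustment), where it was -0.55 to -0.05.

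*Gfra1*, the GDNF co-receptor gene, had narrow groups. Its level was 8.79, 8.65, 8.63, 8.74 and 8.71 in Tat-/Sal (8.70 ± 0.07) and 9.10, 9.51, 9.14, 8.96 and 9.24 in Tat-/Meth (9.19 ± 0.20). Each Tat-/Meth array was above each Tat-/Sal array. It was 8.80, 8.76, 8.54, 8.62 and 8.82 in Tat+/Sal (8.71 ± 0.12) and 9.21, 8.75, 8.75, 8.82 and 8.995 in Tat+/Meth (8.91 ± 0.20). Both saline groups lay together, and Tat+/Meth lay between them and Tat-/Meth and overlapped with each. The rise in Tat-/Meth vs. Tat-/Sal was 0.49 ± 0.10 (1.40-fold, adjusted p = 0.000532). Tat+/Meth was lower than Tat-/Meth by 0.28 (log2 -0.28, adjusted p = 0.0236), a value with an adjusted p of 0.0518 to 0.0774 without Tat-/Meth replicate 2 or without Tat+/Meth replicate 2, 3 or 4. It also missed the limit with no signal filter, with only the 2 groups and with the methods' test, and was 0.06 without scaling. With no scaling of the arrays the rise in Tat-/Meth was 0.07 (adjusted p = 0.733) and that of *Ntrk3* A_55_P2056533 was 0.05 (adjusted p = 0.773). Beside both rises, the astrocyte marker list had its highest levels in Tat-/Meth. The mean level of the 8 markers was 13.24 to 13.60 on the Tat-/Meth arrays, above the 13.13 to 13.21 of Tat-/Sal, the 13.02 to 13.19 of Tat+/Sal and the 13.04 to 13.18 of Tat+/Meth. Of the 8, 3 were higher (34.3% of all genes) and 1 lower (15.1%) past adjusted p 0.05 in Tat-/Meth vs. Tat-/Sal. The median change of the list was 0.24 (all genes 0.14). Some other marker lists had medians as high, with 0.25 for striatal interneurons and 0.36 for choroid plexus. The part of such markers in both rises was not tested.

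*Ret*, the kinase that GDNF and its co-receptor activate, was dim. It was well above background on all arrays of Tat-/Sal and Tat-/Meth, on 2 of 5 in Tat+/Sal and on 3 of 5 in Tat+/Meth. Its levels were 5.92, 5.69, 5.57, 6.29 and 5.79 in Tat-/Sal, 6.68, 5.50, 5.83, 6.15 and 6.36 in Tat-/Meth, 5.66, 5.88, 5.07, 5.03 and 5.06 in Tat+/Sal, and 5.40, 5.37, 6.33, 5.97 and 5.44 in Tat+/Meth. Tat+/Sal held the 3 lowest arrays, and no group stood clear of the others. The probe reached the signal limit of 6 only through Tat-/Meth (mean 6.10), and no comparison passed the test (adjusted p = 0.394 between Tat-/Sal and Tat-/Meth, and 0.290 between the saline groups).

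*Ngfr*, the gene of p75, was printed at 10 spots. Its level was 7.46, 7.43, 8.18, 7.47 and 7.26 in Tat-/Sal (7.56 ± 0.36) and 8.73, 7.85, 7.71, 7.60 and 7.84 in Tat-/Meth (7.95 ± 0.45). It was 8.22, 7.77, 7.76, 7.71 and 7.75 in Tat+/Sal (7.84 ± 0.21) and 7.66, 7.29, 7.74, 7.43 and 7.37 in Tat+/Meth (7.50 ± 0.19). In 3 of the groups 1 array stood above the others, by more than the spots of an array varied (SD 0.04 to 0.31). No comparison of 2 groups passed the test, with 0.39 ± 0.19 in Tat-/Meth vs. Tat-/Sal (adjusted p = 0.103), -0.34 in Tat+/Meth vs. Tat+/Sal (adjusted p = 0.510) and -0.45 in Tat+/Meth vs. Tat-/Meth (adjusted p = 0.0588). The difference between the effects of Meth in Tat+ and Tat- mice was -0.73 ± 0.27 (adjusted p = 0.0430). It depended on single arrays. The adjusted p was 0.0506 to 0.0811 without Tat-/Meth replicate 1 or 2, Tat-/Sal replicate 1, 2, 4 or 5, Tat+/Meth replicate 2, 4 or 5, or Tat+/Sal replicate 1, 2 or 5, and it was 0.0813 with no signal filter and 0.549 without scaling.

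**Figure D2:**
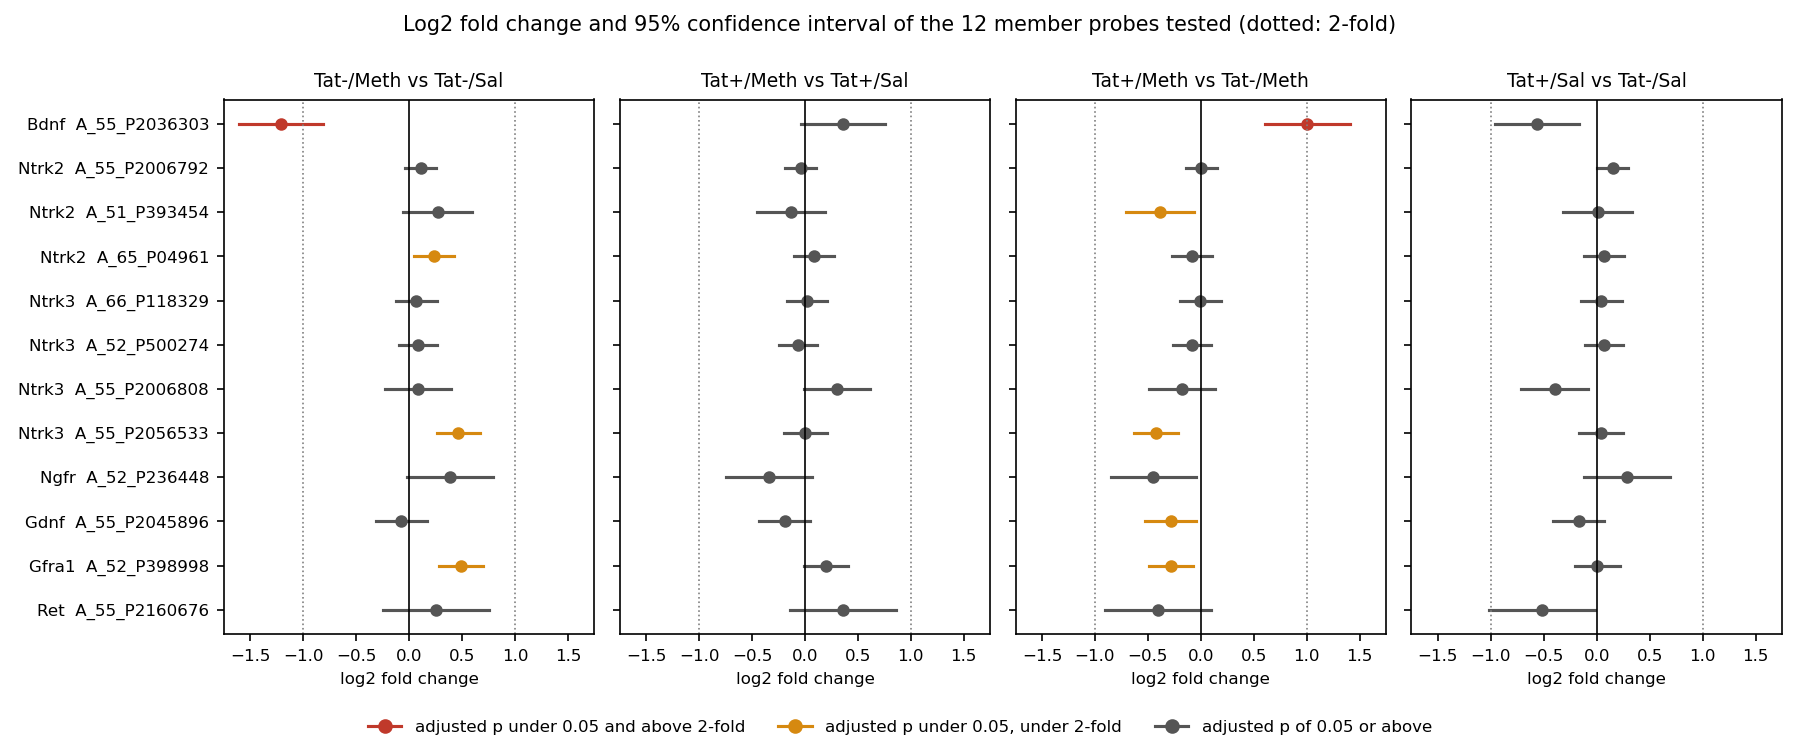
Log2 fold change and 95% confidence interval (horizontal axis) of the 12 member probes tested, in 4 comparisons; dotted lines mark 2-fold. *Bdnf* passes both limits in Tat-/Meth against Tat-/Sal (-1.21), and again when Tat+/Meth is compared with Tat-/Meth (1.005). No probe passes adjusted p 0.05 in the second or the fourth panel.

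Counted over the 12 probes tested, 4 passed adjusted p 0.05 in Tat-/Meth vs. Tat-/Sal, 3 higher and 1 lower, and 50.3% of all probes did (28.1% higher, 22.2% lower). In 3 of the 12 the groups did not overlap, against 36.6% of all probes, so neither share was above that of all probes. The median change of the 12 was 0.17 and that of all probes was 0.10. In Tat+/Meth vs. Tat-/Meth 5 passed, 1 higher and 4 lower, beside 53.5% of all probes (23.2% higher, 30.3% lower), and 2 did not overlap, beside 37.2%. In the difference between the effects of Meth 3 passed, beside 37%.

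In Tat+ mice no member passed the test for Meth. Of the 12 probes, 0 passed adjusted p 0.05 in Tat+/Meth vs. Tat+/Sal by limma, as did 0% of all probes, and 0 had an unadjusted p under 0.05, which 11.5% of all probes had. Their 95% intervals reached no further than 0.86 on the log2 scale in either direction. In Tat+/Sal vs. Tat-/Sal 0 members passed adjusted p 0.05, beside 0.708% of all probes, and 4 had an unadjusted p under 0.05, beside 16.6%. These were *Bdnf* and *Ntrk3* A_55_P2006808, given above, *Ntrk2* A_55_P2006792 (0.15, limma adjusted p = 0.284) and *Ret* (-0.51, limma adjusted p = 0.290), whose means in these groups (5.34 and 5.85) both lay under the signal limit. In Tat+/Meth vs. Tat-/Sal 0 members passed, beside 0.00317% of all probes.

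The other genes of the pathway were read from lists set for this work, with the brightest probe of each gene. Of 16 further ligands and receptors 12 were tested, and in Tat-/Meth vs. Tat-/Sal 2 were called, both lower, beside 6.85% of all genes, while 3 passed adjusted p 0.05 upwards and 4 downwards (all genes 34.3% and 15.1%). *Gfra3*, the co-receptor gene for artemin, had a mean level of 6.93 in Tat-/Sal (SD 0.11, n = 5) and of 4.72 in Tat-/Meth (SD 0.61, n = 5). It fell by 2.21 on the log2 scale (limma adjusted p = 7.16e-07) and was well above background on 1 of the 5 Tat-/Meth arrays, so that the size of its change is not well measured in any comparison with that group. *Artn*, which encodes artemin, was higher by 0.36 (adjusted p = 0.0129).

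*Gfra4*, the co-receptor gene for persephin, was read by 4 probes that gave opposite directions. The brightest, A_55_P2039196, fell by 1.99 (log2 -1.99, adjusted p = 2.93e-08), and the other 3 changed by 0.07, 0.08 and 0.34, the last of them, A_55_P1984119, named by the same transcript record and past the test (adjusted p = 0.0103). *Ncam1*, an alternative GDNF receptor, was higher by 0.49, *Sorcs3*, a sortilin family gene, was higher by 0.77, and *Sdc3*, which encodes a GDNF-binding proteoglycan, was lower by 0.36. In Tat+/Meth vs. Tat-/Meth the 2 called genes were again *Gfra4* (2.10) and *Gfra3* (1.99, with the limit just given), both higher, beside 7.22% of all genes, in a comparison with the same Tat-/Meth arrays. *Sorl1*, another sortilin family gene, was lower by 0.25 in Tat-/Meth vs. Tat-/Sal (log2 -0.25, adjusted p = 0.0313), and its responses to Meth in Tat+ and Tat- mice differed by 0.44 (adjusted p = 0.0127).

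Of 26 adaptors and partners of the Trk, p75 and Ret receptors 25 were tested, and 1 was called between Tat-/Sal and Tat-/Meth, beside 6.85% of all genes. This was *Lingo1*, whose protein joins p75 and the Nogo receptor in one complex. It fell from 10.40 ± 0.12 to 8.36 ± 0.49 (-2.04 ± 0.19, adjusted p = 9.75e-08). *Rtn4r*, the Nogo receptor gene itself, was lower by 0.82 (log2 -0.82, adjusted p = 0.0160), and *Frs3*, a docking protein of Trk receptors, was lower by 0.61 (log2 -0.61). The adaptor *Gab1* was higher by 0.51, as was *Dok5* by 0.50, an adaptor that binds Ret and TrkC. The list had 6 genes past adjusted p 0.05 upwards (34.3% of all genes) and 3 downwards (15.1%). *Dok5* was the 1 gene of the list, beside *Lingo1*, called for the difference between the effects of Meth in Tat+ and Tat- mice (-1.06 ± 0.28, adjusted p = 0.00655), beside 7.44% of all genes.

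The enzymes that cut proneurotrophins or activate plasmin showed no call among 9 of 13 genes tested, where 6.85% of all genes were called in Tat-/Meth vs. Tat-/Sal. Past adjusted p 0.05 in that comparison, 1 was higher (34.3% of all genes) and 2 were lower (15.1%). *Plat*, the gene of tissue plasminogen activator, was higher by 0.46 (adjusted p = 0.000157) in Tat-/Meth vs. Tat-/Sal, and *Furin* was lower by 0.27 (log2 -0.27, adjusted p = 0.0283). The brightest probe of *Cpe*, which encodes a protein that sorts BDNF precursors into granules, was lower by 0.57 (log2 -0.57), while its other 2 probes changed by 0.01 or less upwards and by -0.02.

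Among 15 transcription factors known to act on *Bdnf*, all tested, 0 were called (6.85% of all genes) and 8 passed adjusted p 0.05 in Tat-/Meth vs. Tat-/Sal by limma. Of these 5 were higher (34.3% of all genes) and 3 lower (15.1%). *Npas4*, an activity-induced activator of *Bdnf*, was higher by 0.61 ± 0.21 (adjusted p = 0.0203), and *Rest*, a repressor of neuronal genes that include *Bdnf*, was higher by 0.50 ± 0.10 (adjusted p = 0.000617). *Mef2c* and *Mef2d* were higher by 0.36 and 0.37. *Crtc1*, a coactivator of CREB, was lower by 0.39 (log2 -0.39, adjusted p = 0.000184) and *Creb1* by 0.26 (log2 -0.26). The brightest probe of *Usf2* was lower by 0.52 (log2 -0.52), and its other probe changed by 0.14. *Usf1* passed in the difference between the effects of Meth (-0.52, adjusted p = 0.0296).

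Of 17 genes known to respond to Trk or Ret signalling, all tested, 1 was called between Tat-/Sal and Tat-/Meth, beside 6.85% of all genes. *Spry4*, which encodes an inhibitor of receptor tyrosine kinase signalling, fell from 8.01 ± 0.27 to 6.83 ± 0.25 (-1.17 ± 0.13, adjusted p = 7.70e-07). *Etv1*, a transcription factor gene, was higher by 0.48, *Spred1*, another inhibitor, by 0.33, and *Spry1* by 0.23, while *Homer1* was lower by 0.33 (log2 -0.33). *Egr2*, an immediate early gene, was lower in Tat+/Meth vs. Tat-/Meth (-0.63, adjusted p = 0.0308), and *Etv4* passed in the difference between the effects of Meth (-0.46, adjusted p = 0.0199). In Tat+/Meth vs. Tat+/Sal 0 genes of the 5 lists passed adjusted p 0.05, beside 0% of all genes, and in Tat+/Sal vs. Tat-/Sal *Lingo1* was the 1 gene past it (-0.94, adjusted p = 0.0422), beside 0.271% of all genes lower. These groups lie on different slides. With slide as a term in the fit the *Lingo1* difference was -0.28 and did not pass. It also missed the limit with median scaling, normexp, the series matrix values and other signal filters, and without Tat-/Meth replicate 2 or 3, Tat-/Sal replicate 1, 2, 4 or 5, Tat+/Meth replicate 1 or 2, or Tat+/Sal replicate 2, 3, 4 or 5.

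**Figure D3:**
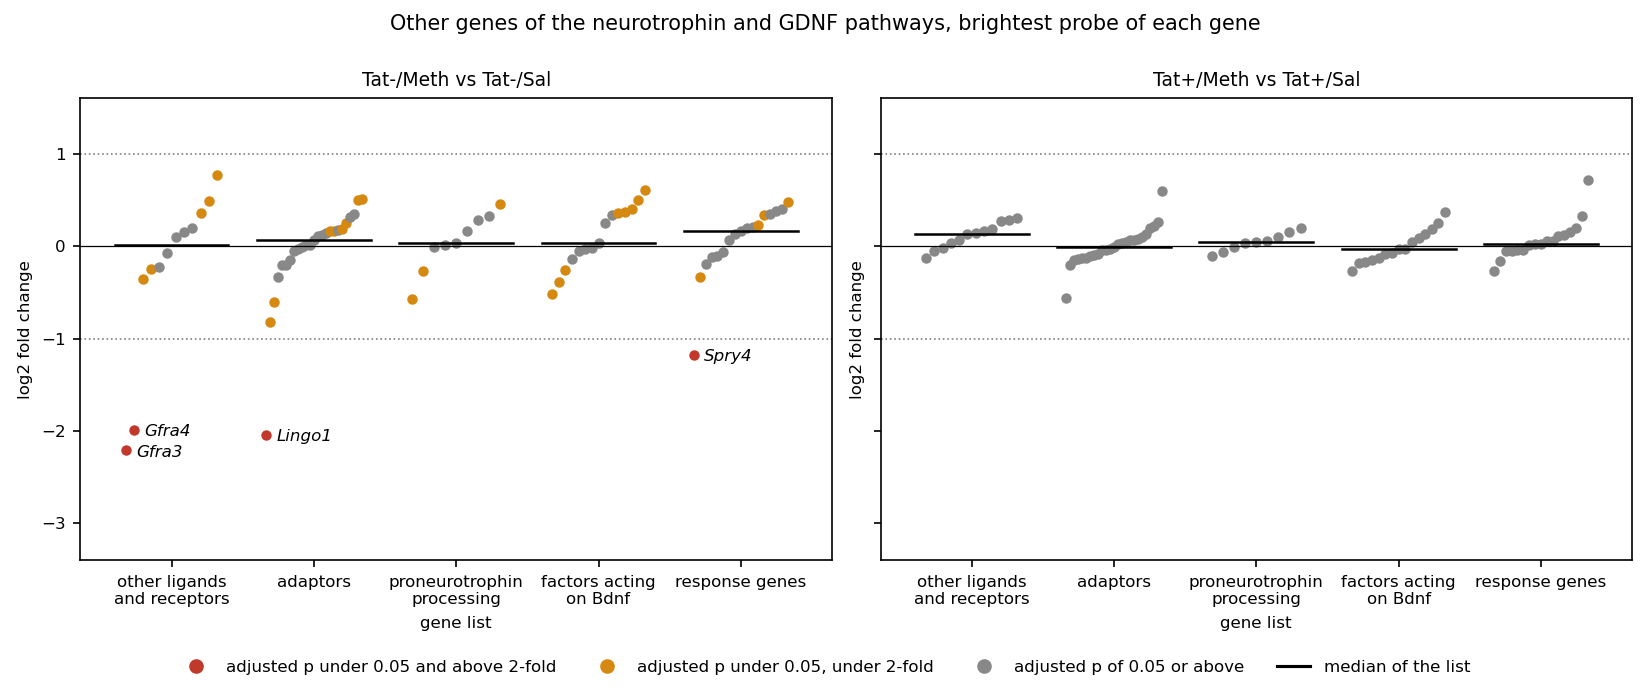
Log2 fold change (vertical axis) of the tested genes of 5 pathway lists (horizontal axis), brightest probe of each gene, for the effect of Meth in Tat- mice (left) and in Tat+ mice (right); lines are list medians and dotted lines mark 2-fold. *Gfra3* (-2.21), *Lingo1* (-2.04), *Gfra4* (-1.99) and *Spry4* (-1.17) pass both limits at left, and no gene passes adjusted p 0.05 at right. For *Gfra3*, 4 of 5 Tat-/Meth arrays were not clear of background, and the other *Gfra4* probes showed no such fall.

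Each change is relative to the scaling of the arrays. Without scaling the median of all probes in Tat-/Meth vs. Tat-/Sal was -0.33, against 0.10 after scaling to the 75th percentile. *Bdnf* was lower under each of 6 scalings, from -1.63 without scaling to -0.46 with normexp, and so were *Gfra3*, *Gfra4* A_55_P2039196, *Lingo1* and *Spry4*. The rises of *Gfra1* and *Ntrk3* A_55_P2056533 were 0.41 to 0.61 under the 5 scalings that adjust the arrays and near 0 without scaling, which was still above the median of all probes.

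**Figure D4:**
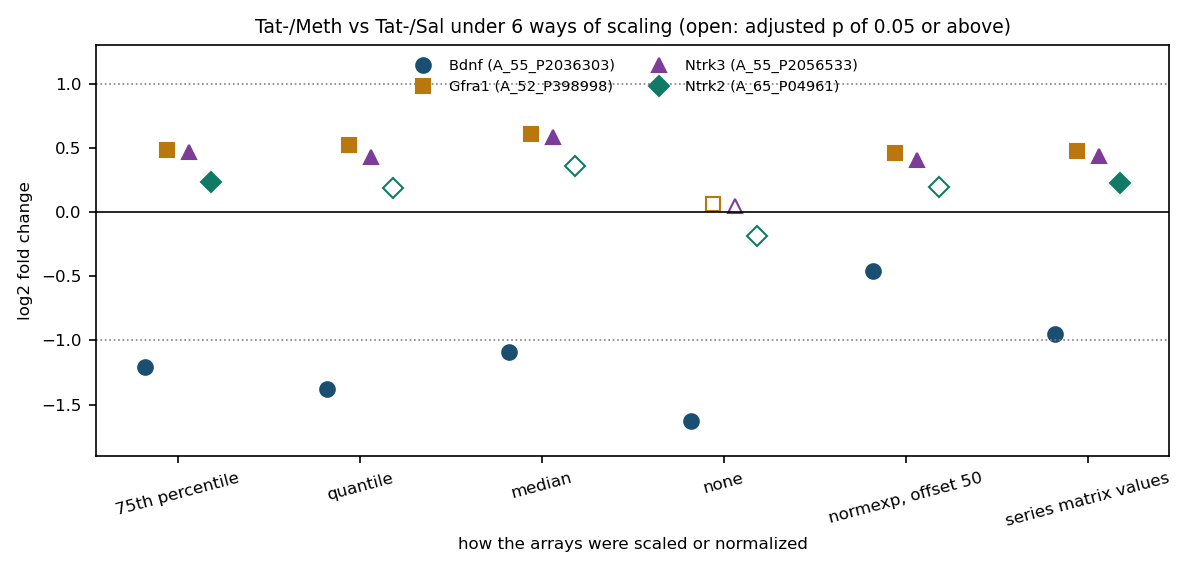
Log2 fold change in Tat-/Meth vs. Tat-/Sal (vertical axis) of 4 member probes under 6 ways of scaling the arrays (horizontal axis); open markers have an adjusted p of 0.05 or above. *Bdnf* is below 0 under all 6 (-1.63 to -0.46), and *Ntrk2* A_65_P04961 changes side without scaling (-0.18).

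Variation within groups was described for the 5 members whose brightest probe was well above background on all arrays, as deviations from the mean of each group on each slide, over 20 arrays and against 13996 other genes. These arrays share their RNA preparation and scan within an array, so the values are descriptions. For *Ntrk3* the most alike genes were *Onecut2* (r = 0.88), *Dlgap3* (0.88) and *Brsk2* (0.85), and for *Ntrk2* they were *Sf1* (0.84), *Hyls1* (0.80) and *Sdf2l1* (0.79). For *Gdnf* they were *Usp1* (0.89), *Zfp869* (0.88) and *Ifitm7* (0.87), and for *Gfra1* the most alike was *Gbx1* (0.87). *Ngfr* was most like *Npas1* (0.87), *Asb13* (0.82) and *Kcnc2* (0.81), and without the 2 farthest arrays these values were 0.71, 0.62 and 0.60. Over the pairs named r was 0.60 to 0.92 without the 2 farthest arrays. Among the 5 members themselves r lay between -0.33 (*Ntrk2* and *Ngfr*) and 0.54 (*Ntrk2* and *Ntrk3*).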

How the data were processed

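RNA was hybridised to 20 one-colour Agilent mouse arrays, 5 per group. The authors deposited spot intensity values from Feature Extraction 10.7.3.1 (per the file headers and the submitters' processing notes) and a series matrix whose linear signal equals the background-subtracted intensity plus a constant per array for 99.8 to 100% of probes. The labels name Cy3, the methods Cy5, a smaller array and another scanner program. The genome build behind the probes is not given in the sources used here.

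The deposited processed signal (gProcessedSignal) was used on the log2 scale. It is not the background-subtracted intensity that lies behind the series matrix. Control spots and spots marked as outliers (4278) were left out, spots of a probe were averaged, and arrays were aligned at the 75th percentile, set to its mean over arrays (before scaling 9.64 to 10.33, with 55.4 to 70.9% of probes well above background). A probe was tested if the mean of some group reached 6 and every group had 3 or more arrays with a value. Groups came from the sample titles; slides came from the file names. One limma fit (3.58.1, R 4.3.3) held all arrays, 1 mean per group, with Benjamini-Hochberg adjustment over all probes tested. Differences between 2 probes within an array had exact permutation tests (scipy 1.17.1). Other steps used Python 3.11.15, numpy 2.4.6, pandas 2.3.3 and matplotlib 3.10.9. In data simulated for Tat-/Meth vs. Tat-/Sal over 31516 probes, the adjusted p passed 0.05 for 83.5% of 200 probes changed by 1 log2 unit and 96.5% of 200 changed by 2. The simulation left all other probes unchanged, held no slide effect and did not apply the 2-fold limit. In the real comparison 50.3% of all probes passed adjusted p 0.05, so these shares may not hold for it. The number of arrays limits the precision, and p-values cover the spread between mice of 1 group.

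The members, lists, rule for named genes and alternatives were chosen with earlier results of these data known. Named were all members, every list gene called in any comparison, per list and comparison up to 3 genes with the largest change past adjusted p 0.05, and up to 3 genes most like each member; *Artn*, *Ncam1*, *Sdc3*, *Creb1*, *Spry1* and *Homer1* were added after their values were seen. Some genes that this rule would name, 2 of the ligand and receptor list among them, are not reported here. Symbols and promoters came from RefSeq tables (GRCm38.p6). Alternatives were quantile, median and no scaling, normexp with an offset of 50 on the median foreground signal, the series matrix, other filters and probe rules, slide or replicate number as a block, within-slide fits, only the 2 groups compared, a trended prior, the methods' *t*-test, other thresholds and each array left out in turn.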

Additional observations from a re-analysis of the deposited data

Results flagged for a closer look

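In 4 of 52 groups of 5 arrays tested, 1 array lay further from the others than the limit for a single outlier (a gap of 0.71 of the range), which chance gives in about 1 in 20 groups. *Ntrk3* A_55_P2056533 was 11.62 on Tat-/Meth replicate 3 and 11.23 to 11.32 on the others. *Ngfr* was 8.18 on Tat-/Sal replicate 3 (others 7.26 to 7.47), 8.73 on Tat-/Meth replicate 1 (others 7.60 to 7.85) and 8.22 on Tat+/Sal replicate 1 (others 7.71 to 7.77).

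The responses to Meth in Tat+ and in Tat- mice differed (the former minus the latter) by limma for *Bdnf* (1.57), *Ntrk3* A_55_P2056533 (-0.46) and *Ngfr* (-0.73). Each rests on the Tat-/Meth arrays, which are alone on slide 1.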

How the results depend on the processing

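The number of member probes called in Tat-/Meth vs. Tat-/Sal was 1, and it became 0 with normexp, with the series matrix values and at adjusted p 0.01 with 3-fold, and 4 with no fold limit. In Tat+/Meth vs. Tat-/Meth the 1 call became 0 with median scaling, normexp, the series matrix values and the stricter limits, 5 with no fold limit, and 0 to 1 with 1 array left out. For the difference between the effects of Meth the 1 call became 0 with quantile normalization, normexp and the stricter limits, and 3 with no fold limit. Quantile normalization left that *Bdnf* value at 1.64 with an adjusted p of 0.0578. The cause of these changes was not tested. Signs turned without scaling for *Ntrk2* A_65_P04961 in Tat-/Meth vs. Tat-/Sal (-0.18), for *Gdnf* (0.0529) and *Gfra1* (0.0559) in Tat+/Meth vs. Tat-/Meth and for *Ntrk3* A_55_P2056533 in the difference between the effects of Meth (0.0232). They turned for *Bdnf* in Tat+/Meth vs. Tat-/Sal with slide as a fixed term and within the shared slide (0.0093 each).

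Over all probes, 223 were called higher and 3428 lower in Tat-/Meth vs. Tat-/Sal, and 37 and 5561 without scaling. At adjusted p alone 8845 of 15840 were higher, 354 of 15909 without scaling and 23897 of 29625 with normexp. The methods' *t*-test gave 3561 probes above 2-fold at an unadjusted p under 0.05 and 3391 after Benjamini-Hochberg adjustment. Replicate numbers showed no strong pairing of the samples (r between -0.137 and 0.309 over 30 pairs, 9 over 0.1). The median r was 0.057 for equal numbers and -0.011 for other numbers. With the replicate number as a block 3646 probes were called in place of 3651, and 16413 passed adjusted p alone in place of 15840. With this block *Bdnf* was -1.21 (limma adjusted p = 0.000116), and no count of member probes called changed.

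Signal limits the dim genes: *Ntf3* was well above background on 0 of 20 arrays, *Ret* was well above background on 15 of 20 arrays, and *Bdnf* was not on 1.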
